A study of Mus musculus with 6 samples.

Results

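The genes described here encode 8 small leucine-rich proteoglycans (Ogn, Dcn, Lum, Bgn, Fmod, Aspn, Prelp and Omd), the olfactomedin-domain matrix protein Olfml2b and the matrix Gla protein Mgp. They are 10 of the 53465 genes in the deposited table, matched by symbol, and all 10 were found. The list was chosen partly on measured values: the differences of Ogn and Olfml2b between the fractions compared below were known when it was drawn up. What follows for the 10 genes in that comparison is therefore a description, with no test read from it. The lists of other genes set beside them were also chosen with earlier results of these data known, apart from the neighbours, taken by position. The shares of those lists past the threshold are descriptions too.

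RNA came from 4T1, a mouse mammary carcinoma line. The cells had become resistant to axitinib, an inhibitor of VEGF receptor kinases, in vivo under 100 mg/kg/day. They were taken from lesions that had formed after surgery and were kept in culture with 0.5 µM axitinib. They were stained with C12FDG, which fluoresces once β-galactosidase has cleaved it, and sorted into a high fraction (SM positive, 3 libraries) and a low fraction (SM negative, 3 libraries). All 6 libraries thus come from axitinib-resistant cells grown with the drug, and no drug-sensitive 4T1 cells were analysed here. No label states whether replicates were separate cultures or separate sorts. The p-values therefore set the difference between fractions against the spread of these 6 libraries within fractions, and that spread may be technical.

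Small leucine-rich proteoglycans are secreted proteins built of leucine-rich repeats. Many carry chains of chondroitin, dermatan or keratan sulfate, bind collagen fibrils and set their spacing, and some bind TGF-β or signal through Toll-like receptors. They are typical products of fibroblasts, cartilage and bone rather than of epithelial tumour cells. Mgp is a small secreted protein whose glutamates are carboxylated with vitamin K as cofactor. It keeps soft tissue from calcifying and binds bone morphogenetic proteins.

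Total counts were 18733801 to 26533528 per library. Epithelial genes were read beside the 4T1 label, which does not tell 4T1 from other epithelial cells. All 8 mammary epithelial markers had counts. Their summed level was 4200 to 4520 CPM in SM positive and 4480 to 4700 CPM in SM negative libraries. The keratin gene Krt7 alone stood at 1310 and 1390 CPM. The markers Krt19 (0.917 and 1.71 CPM) and Cldn7 (1.48 and 1.41 CPM) were low. CPM, the usual depth-scaled count, was computed with TMM-scaled totals. Of 14038 genes tested between the fractions with edgeR's quasi-likelihood test, 1.35% passed an adjusted p of 0.05, 1.14% of all as higher in SM positive cells. Libraries with the same replicate number deviated together. They are treated as pairs in the pair ratios and in the fits with a replicate block. The other fits, used where no block is named, ignore the pairing. With the replicate number as a block 14.1% passed, 8.52% higher and 5.6% lower.

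Of the 10 genes, 3 were well measured and stood higher in every SM positive library than in any SM negative one: Ogn 2.95-fold, Olfml2b 2.14-fold and Mgp 1.81-fold. Bgn was 1.8-fold higher at a level under 1.3 CPM, with no overlap of the libraries but a wide error. Prelp, Omd and Dcn were detected at 27 counts or fewer in any library, Aspn at 3 or fewer, and Lum and Fmod had no count at all. In all tested genes, SM positive libraries lay wholly above SM negative ones in 10.4%, and SM positive was the higher library in all 3 pairs in 23.9%. The 4 tested members met both conditions, and 3 of them (Ogn, Olfml2b and Mgp) passed the threshold, with and without the block. Nothing is read from that count, because the list was drawn up with part of it known. RNA of a whole fraction does not show whether more cells expressed a gene or whether each cell held more of its RNA.

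**Figure D1:**
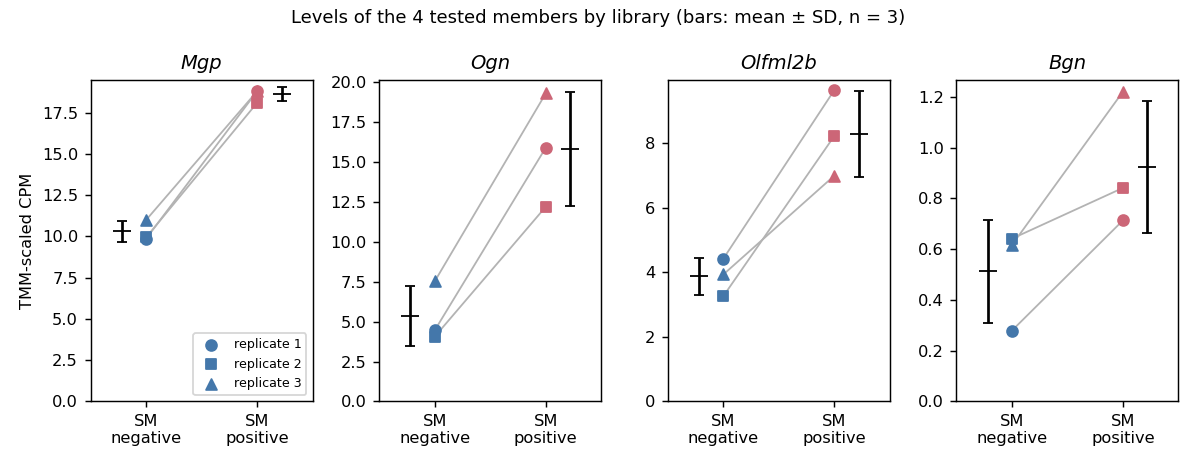
TMM-scaled CPM of Mgp, Ogn, Olfml2b and Bgn in each library, with SM negative in blue, SM positive in red, marker shape for the replicate number, grey lines joining libraries of the same number, and black bars for the mean ± SD of 3 libraries. All SM positive libraries lie above all SM negative ones in each panel; relative to its mean, Mgp varies least within a fraction.

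Ogn encodes osteoglycin, also called mimecan, a small leucine-rich proteoglycan first known from bone that binds collagen fibrils. It lies on chromosome 13 (GRCm38, 49608046 to 49624501, plus strand, 7 exon blocks). Its RefSeq promoter on GRCm38.p6, chr13:49607765-49608064, plus strand, is shown with that of Olfml2b because these differ most between the fractions among the 4 tested members. Each sequence runs from 250 bases before to 50 bases after the annotated start, and capitals mark matches on either strand to the core promoter motif TATAAA, the TEAD factor motif CATTCC, the AP-1 factor motif TGANTCA or the GC box motif GGGCGG. The Olfml2b window is chr1:170644282-170644581, plus strand.
Ogn: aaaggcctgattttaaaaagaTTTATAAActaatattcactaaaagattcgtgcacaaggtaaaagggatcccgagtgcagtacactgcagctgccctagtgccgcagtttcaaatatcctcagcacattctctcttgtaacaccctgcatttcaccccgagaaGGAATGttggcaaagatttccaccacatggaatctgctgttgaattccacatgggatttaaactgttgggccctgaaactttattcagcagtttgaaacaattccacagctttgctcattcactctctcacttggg
Olfml2b: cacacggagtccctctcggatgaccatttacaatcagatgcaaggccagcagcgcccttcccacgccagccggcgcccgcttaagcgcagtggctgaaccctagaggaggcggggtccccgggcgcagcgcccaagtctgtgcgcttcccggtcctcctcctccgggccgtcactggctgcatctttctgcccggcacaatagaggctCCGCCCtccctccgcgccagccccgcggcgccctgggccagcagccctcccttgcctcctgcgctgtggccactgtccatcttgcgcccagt
The windows differ in base composition. The Ogn window has a GC content of 42.3% and 4 CpG dinucleotides, and the Olfml2b window has 69.0% and 25; the medians over all 32851 promoters in the table are 52.7% and 7. Ogn holds 1 TEAD match, which 14.7% of all promoters hold, and 2 TATAAA matches that overlap each other far upstream of the start, a motif found in 13.6%. Olfml2b holds 1 GC box, found in 35.7%. Neither holds the AP-1 motif, found in 7.81% of promoters. A letter match is a description and does not show a bound site. The promoters of the neighbouring genes Omd and Aspn were also low in GC content, at percentiles 6.63 and 1.28 of all promoters, and that of Ogn at 14.9.

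Ogn stood at 4.46, 4.06 and 7.53 CPM in SM negative replicates 1, 2 and 3, and at 15.9, 12.2 and 19.3 CPM in SM positive replicates 1, 2 and 3. The lowest SM positive library was above the highest SM negative one, and replicate 3 was the highest in each fraction. The fitted log2 change was 1.56 ± 0.248 (SE). Within pairs 1, 2 and 3 the ratio was 3.58, 3.00 and 2.56. With the replicate block the log2 change was 1.58 and its SE 0.104, because much of the spread of Ogn lay between replicate numbers. Without the block Ogn no longer passed the threshold when SM negative replicate 1 or 2 or SM positive replicate 1 or 3 was left out (log2 changes of 1.40 to 1.55).

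Ogn lies within the span of Cenpp, a centromere protein gene on the opposite strand. The sources used here do not state the strand setting of the counting, so antisense reads may not be separated. The exons of Ogn share 0 bases with exons of Cenpp, and Cenpp itself stood at 8.41 ± 0.83 CPM in SM negative and 8.02 ± 0.706 CPM in SM positive cells (SD, 3 libraries each; log2 change -0.07). None of the 2536 distinct 31-base stretches of Ogn occurs in a transcript of another gene.

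Olfml2b encodes a secreted olfactomedin-domain protein, also known as photomedin-2, that binds chondroitin sulfate; it has no leucine-rich repeats. It lies on chromosome 1 (170644532 to 170682789, plus strand) with no overlapping gene. It stood at 4.42, 3.26 and 3.93 CPM in SM negative replicates 1, 2 and 3 and at 9.64, 8.22 and 6.99 CPM in SM positive replicates 1, 2 and 3. The fractions did not overlap, and the replicate that was highest in SM negative cells was highest in SM positive cells as well. The log2 change was 1.09 ± 0.162 (SE), and the pair ratios were 2.18, 2.52 and 1.78. It no longer passed without SM negative replicate 2 or 3.

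Mgp lies on chromosome 6 (136872435 to 136875823, minus strand) with no overlapping gene. It stood at 9.87, 9.94 and 11.0 CPM in SM negative replicates 1, 2 and 3 and at 18.8, 18.1 and 18.8 CPM in SM positive replicates 1, 2 and 3. The libraries of a fraction lay close together, and the gap between fractions was many times their spread. The log2 change was 0.85 ± 0.0887 (SE), with pair ratios of 1.90, 1.82 and 1.71. Mgp was the 1 member that kept the call with every single library left out, at log2 changes of 0.82 to 0.91 over all settings tried. Its log2 change was close to that of Bgn, and its SE was the smallest of the 4 tested members.

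Bgn encodes biglycan, which carries chondroitin or dermatan sulfate chains and can signal through Tlr2, Tlr4 and P2X receptors. It lies on chromosome X (73483602 to 73495933, plus strand). It had 7, 12 and 13 counts in SM negative and 19, 18 and 24 counts in SM positive replicates 1, 2 and 3, which is 0.279 to 0.641 and 0.713 to 1.22 CPM. The fractions did not overlap, but the gap between the nearest libraries was small. The log2 change was 0.86 ± 0.38 (SE), and Bgn did not pass the threshold in any setting tried. The pair ratios ranged from 1.31 to 2.56, so the size of the difference is poorly known at this depth. It met the filter on low counts, 0.469 CPM in at least 3 libraries, in 5 libraries.

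To compare levels between genes, counts were divided by merged exon length and scaled to a common total per library (TPM). Per length, the order among tested members was the same in each fraction: Mgp, Ogn, Olfml2b, Bgn. Mgp stood at 43.3 ± 1.2 TPM in SM positive and 23.5 ± 1.79 TPM in SM negative cells (SD, 3 libraries each). Ogn stood at 17.1 ± 3.95 and 5.67 ± 2.08 TPM and Olfml2b at 7.4 ± 1.14 and 3.38 ± 0.44 TPM. The libraries of neighbours in this order did not overlap within a fraction, with Ogn and Olfml2b closest in SM negative cells, at 4.36 TPM in the lowest Ogn library and 3.76 TPM in the highest Olfml2b library. Bgn was at 0.419 ± 0.122 and 0.229 ± 0.0944 TPM. Averaged over all libraries, Mgp was above 68.3% of the tested genes, Ogn above 40.9%, Olfml2b above 26.7% and Bgn above 1.22%, so none was an abundant transcript of these cells.

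The remaining 6 members failed the filter and are too low to judge. Prelp encodes a proteoglycan of basement membranes and cartilage that binds heparan sulfate. It had 3, 1 and 6 counts in SM negative and 27, 11 and 7 counts in SM positive replicates 1, 2 and 3. SM positive replicate 1 held most of the excess, and replicate 3 differed by 1 count between the fractions. Summed counts were 45 and 10, a ratio of 4.31 with an exact 95% interval of 2.14 to 9.59 that covers counting error only. Gm15851, on the opposite strand, shares 350 exon bases with Prelp and had 0 counts in every library. Of the 31-base stretches of Prelp, 9% occur in other genes on either strand, which may include that overlap. The counts of Prelp are therefore uncertain. In the fit without a filter, in which 1.91% of genes were higher, Prelp passed the threshold.

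Omd, which encodes the keratan sulfate proteoglycan osteomodulin of bone, had 1, 0 and 1 counts in SM negative and 4, 4 and 8 counts in SM positive replicates 1, 2 and 3. The ratio of summed counts was 7.66, with an interval of 1.8 to 68.7 for counting error only. Of the 31-base stretches of Omd, 6.46% occur in other genes. Dcn, which encodes decorin, a binder of collagen and TGF-β, had 0 to 1 counts in SM negative and 2 to 4 counts in SM positive libraries. Its ratio was 4.31, with an interval of 0.892 to 41.0, so a difference was not detectable. Aspn, which encodes asporin, a binder of collagen and TGF-β, had 3 counts in SM negative and 1 in SM positive libraries in all. Lum and Fmod, which encode the keratan sulfate proteoglycans lumican and fibromodulin, had 0 counts in every library, and 3 counts, the limit that allows, are 0.113 to 0.16 CPM. For Prelp, Omd and Dcn the lowest SM positive library was above the highest SM negative one, in Prelp and Dcn by 1 count, and for Aspn the fractions overlapped.

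**Figure D2:**
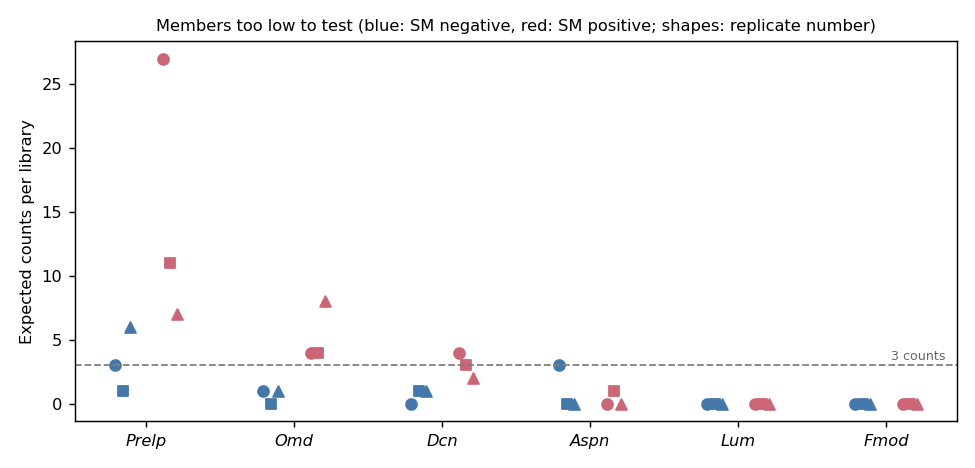
Expected counts per library of the 6 members too low to test, with SM negative in blue, SM positive in red and marker shape for the replicate number; the dashed line is at 3 counts, the limit allowed by a count of 0. Only Prelp, in SM positive replicates 1 and 2, exceeds 8 counts.

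The genes of this family lie in clusters. Aspn, Omd and Ogn follow each other on chromosome 13 in the same orientation, with 14896 bases between Aspn and Omd and 15223 between Omd and Ogn, and Ecm2, a relative, lies next to Aspn. Within this cluster only Ogn was measured well: Omd stayed at 8 counts or fewer and Aspn at 3 or fewer in every library. Ecm2 had 5 to 11 counts per library. Dcn and Lum lie 46984 bases apart on chromosome 10 beside Kera and Epyc, and Prelp and Fmod lie 115839 bases apart on chromosome 1.

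No tested neighbour rose as far as a tested member. Of 98 annotated genes within 250 kb of a member, 27 were tested. None passed with edgeR or limma-voom, and 1 passed with DESeq2; at an unadjusted p under 0.05, 2 were lower and 0 higher. Over all tested genes 13.6% reached that unadjusted level. The median log2 change of the 27 was -0.03, against -0.001 over all tested genes. Single values ran from -0.74 (Gm9929, nearest to Olfml2b) to 0.53 (Btg2). BC049715, nearest to Mgp, stood at -0.64. Around Ogn, Omd and Aspn, 8 genes were tested, and their log2 changes ran from -0.10 to 0.26. Nol8, which begins 28.6 kb beyond Ogn and encodes a nucleolar protein, stood at 41.0 ± 6.72 CPM in SM negative and 39.0 ± 4.65 CPM in SM positive cells. The most abundant tested neighbours were Iars, an isoleucine tRNA synthetase gene 57.6 kb from Ogn (log2 change -0.10, adjusted p = 0.627), and Atf6, an unfolded protein sensor gene 21.9 kb from Olfml2b (0.07, adjusted p = 0.717). With the block 3 of the 27 passed (11.1%, against 14.1% of all tested genes): Btg2 and Fgd3 were higher and Dusp9 was lower. These were named after their values were seen, and Btg2 lies 26.9 kb from Fmod, which had no counts.

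**Figure D3:**
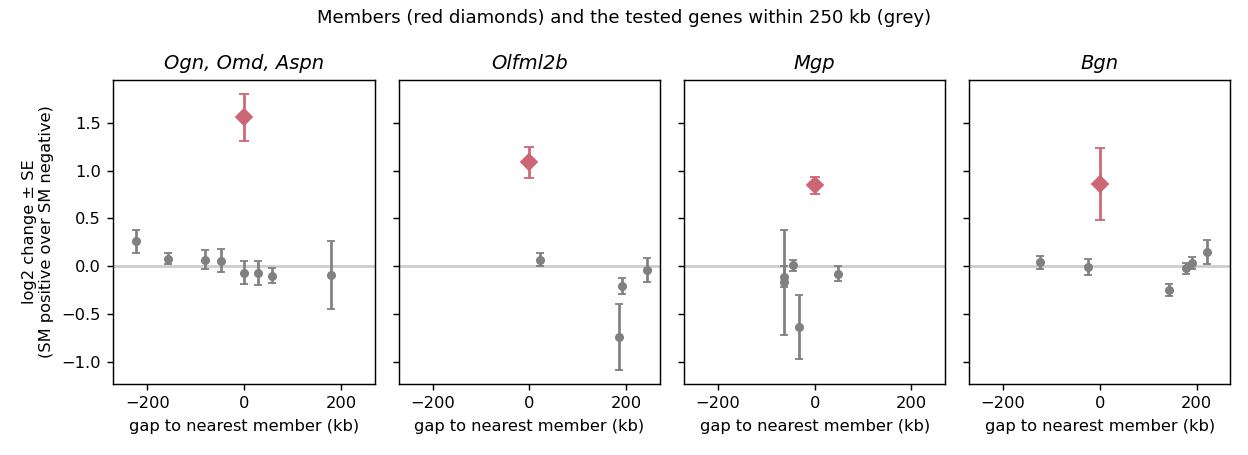
Fitted log2 change ± SE (SM positive over SM negative, no block) of Ogn, Olfml2b, Mgp and Bgn as red diamonds and of the tested genes within 250 kb as grey points, by the gap in kb between gene spans; in the left panel, the gap is to the nearest of Ogn, Omd and Aspn. The grey points lie between -0.74 and 0.26, below each member.

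Other small leucine-rich proteoglycan genes did not pass the test. Of 10 more family members, 7 had any count and 3 were tested. None passed with edgeR, with the block, with DESeq2 or with limma-voom, and 0 reached an unadjusted p under 0.05. Tsku, which encodes tsukushi, a secreted modulator of several growth factor pathways, stood at 19.4 ± 1.34 CPM in SM negative and 17.9 ± 2.48 CPM in SM positive cells (log2 change -0.11 ± 0.109 SE). Podnl1, a podocan-like gene, stood at 16.6 ± 2.67 and 19.1 ± 4.38 CPM (0.20 ± 0.169 SE). The chondroadherin-like gene Chadl stood below 1 CPM. Tsku and Podnl1 were present at levels like that of Ogn in SM positive cells, and their libraries overlapped between fractions. In the olfactomedin family and its latrophilin receptors 3 of 12 genes were tested, and 1 rose, against 1.14% of all tested genes. That gene was Adgrl2, a latrophilin, at 187.0 to 216.0 CPM in SM negative libraries and 1.3-fold higher in SM positive ones, with no overlap (log2 change 0.38 ± 0.0614 SE, adjusted p = 0.0176). Its call was lost without SM negative replicate 1 or 3 or SM positive replicate 2 or 3 (adjusted p up to 0.0746).

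The enzymes that build the sulfated chains of proteoglycans were expressed in these cells, and most stood slightly higher in SM positive cells. Of 36 genes for linker, chain and sulfation enzymes, 28 were tested. The log2 change was above 0 in 25 of these, against 49.8% of all tested genes. Its median was 0.11, against -0.001 over all tested genes. None passed with edgeR or limma-voom and 1 passed with DESeq2. An unadjusted p under 0.05 was reached by 9, all higher, and by 13.6% of all tested genes in either direction. With the replicate block 8 of 28 (28.6%) rose and none fell, against 8.52% of all tested genes that rose. Those 8, named after their values were seen, act on chondroitin and dermatan sulfate or serve all such chains. Dse, the epimerase that turns chondroitin into dermatan sulfate, stood at 6.25, 5.13 and 5.12 CPM in SM negative and 9.79, 7.85 and 7.65 CPM in SM positive replicates 1, 2 and 3. Its log2 change was 0.62 with an adjusted p of 0.0677 without the block and 0.000619 with it.

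The other 7 changed less. Dsel, a relative of Dse, was 1.16-fold higher, the sulfotransferases Chst11 and Ust were 1.26-fold and 1.2-fold higher, and the chain-building enzymes Chsy1 and Csgalnact2 were each 1.14-fold higher. Pxylp1, which removes a phosphate from the linker xylose, was 1.23-fold higher and the sulfate transporter Slc26a2 1.15-fold. Papss1, which makes the sulfate donor, and Ugdh, which makes the UDP-glucuronate that enters the chains, were the most abundant of the list. They stood at 206.0 ± 7.09 and 143.0 ± 7.31 CPM in SM positive cells, 1.05-fold and 1.03-fold of SM negative cells, and did not pass in either fit. The count with the block depended on the libraries: leaving out pair 1, 2 or 3 gave 1, 10 and 4 of 28 genes, all higher. Over all genes tested in those fits 3.61%, 7.22% and 4.48% were higher, so without pair 1 the list was at the background.

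**Figure D4:**
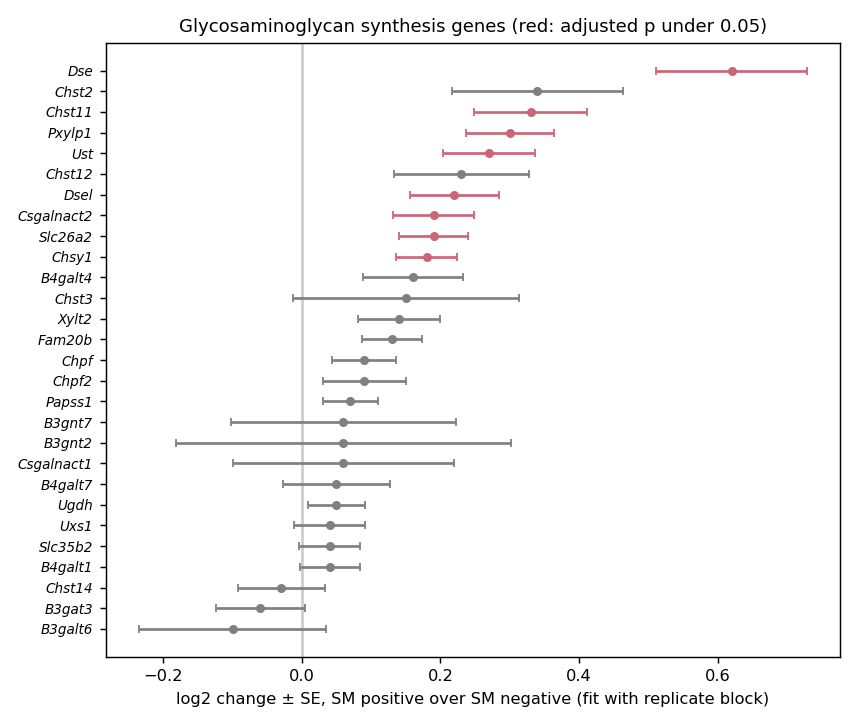
Fitted log2 change ± SE (SM positive over SM negative, fit with the replicate block) of the 28 tested glycosaminoglycan synthesis genes, in red where the adjusted p was under 0.05. The 8 red genes are all above 0, Dse farthest at 0.62.

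Known partners of these proteoglycans included several genes that rose. Of 36 collagens, fibre proteins, growth factors, receptors and proteases, 27 were tested, with a median log2 change of 0.17. In all, 6 rose and none fell (22.2%), against 1.14% of all tested genes that rose. With the block 9 rose and 1 fell, against 8.52% and 5.6% of all tested genes. This list was chosen with earlier results of these data known, so no test is read from its shares. Tgfb3, a TGF-β ligand, rose from 37.3 ± 3.44 CPM in SM negative to 56.4 ± 4.58 CPM in SM positive cells, with no overlap of the libraries (log2 change 0.59 ± 0.0859 SE, adjusted p = 0.0119). Col6a1, a collagen VI chain, rose 1.4-fold (adjusted p = 0.0267). The other 4, named after their values were seen, were Col5a1 (1.65-fold), Tgfb2 (1.51-fold), the receptor Tgfbr2 (1.22-fold) and Ccn4 (1.45-fold), whose product binds decorin and biglycan. Tgfb1 was not among them, at 14.5 ± 0.751 and 12.4 ± 2.15 CPM in SM negative and SM positive cells. The 6 calls were not stable to leaving out a library. With 1 SM negative library left out the list held 1, 0 and 1 calls (replicates 1, 2 and 3), and with 1 SM positive library left out it held 3, 5 and 0.

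The fibrillar collagen genes Col1a1, Col1a2 and Col3a1 were nearly absent, unlike Col5a1 and Col6a1 above. The other collagen V and VI chains listed were low. Col5a2 had at most 1 count and Col6a3 at most 2 in a library. Col6a2 stood at 0.963 ± 0.2 CPM in SM negative and 1.45 ± 0.155 CPM in SM positive cells. Col1a1 stood at 0.556 ± 0.207 CPM in SM negative and 0.755 ± 0.104 CPM in SM positive cells, Col1a2 at 0.39 ± 0.149 and 0.503 ± 0.0134 CPM, and Col3a1 had 0 counts. P2rx7, a receptor for which biglycan is a ligand, fell with the block (adjusted p = 0.0126) but not without it (0.0789). It had 21, 11 and 11 counts in SM negative and 3, 6 and 3 counts in SM positive replicates 1, 2 and 3.

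Among 27 genes of mineralisation and of the vitamin K cycle, 15 were tested, with a median log2 change of 0.16. In all, 2 rose and none fell (13.3%), against 1.14% of all tested genes that rose. With the block 5 rose and none fell (33.3%), against 8.52% of all tested genes that rose. No test is read from these shares either, since earlier results were known when the list was chosen. Spp1, which encodes osteopontin, a phosphoprotein that also restrains crystal growth, rose 1.31-fold (log2 change 0.39 ± 0.0537 SE, adjusted p = 0.00962). Nt5e, the ectonucleotidase CD73, stood at 241.0, 223.0 and 224.0 CPM in SM negative and 314.0, 287.0 and 289.0 CPM in SM positive replicates 1, 2 and 3 (log2 change 0.37 ± 0.0581 SE, adjusted p = 0.0152). Neither passed without SM negative replicate 2 or 3, and Nt5e did not pass without SM positive replicate 3. The other 3 that rose with the block, named after their values were seen, were the pyrophosphate exporter gene Ank (1.19-fold), the phosphatase gene Phospho1 (1.35-fold) and Sox9 (1.10-fold).

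The enzymes that make Mgp active did not pass in either fit. Ggcx, the vitamin K-dependent carboxylase, stood at 9.62 ± 0.566 CPM in SM negative and 11.2 ± 0.692 CPM in SM positive cells (log2 change 0.21 ± 0.101 SE, adjusted p = 0.394). Vkorc1, which recycles vitamin K, stood at 8.03 ± 0.527 and 7.99 ± 0.872 CPM. Of the bone morphogenetic proteins that Mgp binds, Bmp2 and Bmp4 had 0 counts, and Bmp7 stood at 15.5 ± 0.952 and 17.9 ± 2.55 CPM (adjusted p = 0.459). Gas6, Bglap, Bglap2 and Ucma, the other Gla protein genes in this list, had at most 2 counts in any library.

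**Figure D5:**
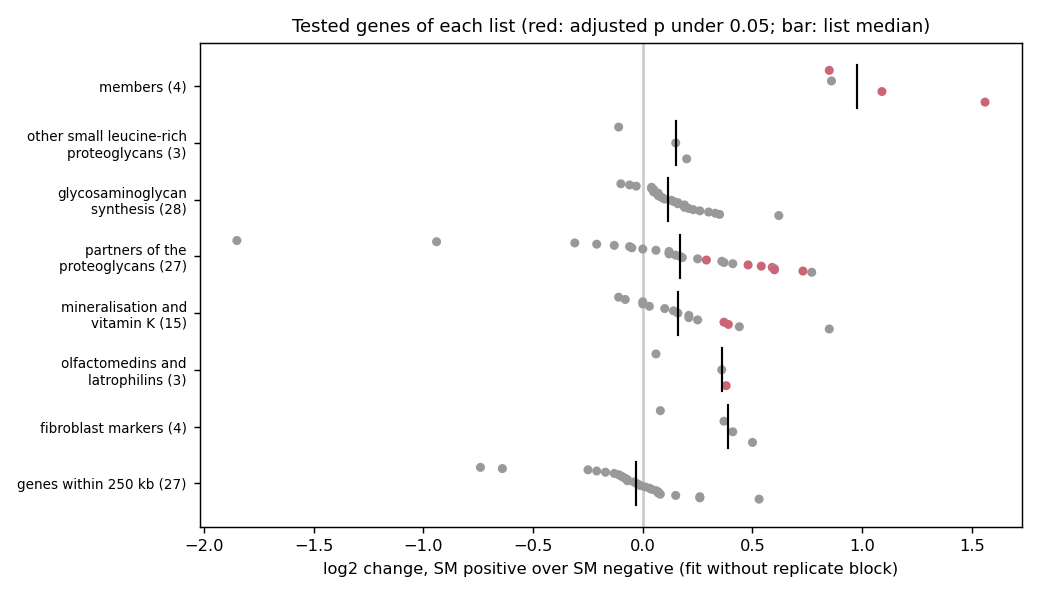
Fitted log2 change (SM positive over SM negative, no block) of each tested gene by list, in red where the adjusted p was under 0.05, with a black bar at the list median; numbers of tested genes are in brackets. The 4 tested members lie between 0.85 and 1.56, and the medians of the other lists plotted lie between -0.03 and 0.39; single genes of those lists reach the members' range, such as Alpl of the mineralisation list at 0.85.

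Fibroblasts make most of these proteoglycans in tissue, so their markers were read beside the members. Of 13 fibroblast markers, 10 had any count and 4 were tested. None passed with edgeR, DESeq2 or limma-voom, and 1 reached an unadjusted p under 0.05. With the block 1, Pdgfra, was higher (25.0%, against 8.52% of all tested genes). All 4 tested markers had a log2 change above 0 (49.8% of all tested genes), with a median of 0.39. Among the untested ones, named after their values were seen, Pdgfrb had 3, 2 and 1 counts in SM negative and 11, 6 and 6 counts in SM positive replicates 1, 2 and 3, with no overlap. Fap, Pi16, Mfap5, Clec3b and Lox, with at most 10 counts in a library, had lower means in SM positive cells, with overlap. The summed level was 304 to 325 CPM in SM positive and 277 to 310 CPM in SM negative libraries, nearly all of it from Postn, a matrix protein gene (307.0 ± 9.13 and 290.0 ± 17.5 CPM). Pdgfra stood at 5.07 ± 1.11 and 3.55 ± 0.253 CPM. Col3a1, Thy1 and Dpt had 0 counts in every library, and Lum and Col1a1 were at or near 0 as above. Endothelial markers summed to 0.187 to 0.405 CPM in SM positive and 0.478 to 0.694 CPM in SM negative libraries, with Emcn at 0. Immune markers summed to 4.9 to 6.33 and 6.45 to 8.72 CPM, almost all of it Cd68, which was lower with the block (adjusted p = 0.0148), with Adgre1, C1qa and Cd3e at 0. Of 7 bone and cartilage markers 2 were tested, Sox9 and Runx2, and none passed with edgeR, DESeq2 or limma-voom, with 0 at an unadjusted p under 0.05; Acan had 0 counts. Their summed level was 83.5 to 95.0 CPM in SM positive and 77.2 to 83.2 CPM in SM negative libraries. With the block Sox9, 1 of the 2, was higher, against 8.52% of all tested genes. Of the 8 epithelial markers, all tested, 3 were lower with the block (37.5%), against 5.6% of all tested genes: Krt19, Epcam and Cldn4. Without the block none of the 8 passed, and 6 had a log2 change below 0. The part of such markers in the members' values was not tested.

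Genes whose level followed Ogn most closely over the 6 libraries were Ccn5, Btbd3, App, Nf2 and Qsox1, with Pearson r of 0.998 to 0.993 on log2 CPM among 10560 genes with at least 5 CPM. The fractions stand apart for Ogn, so r mostly records which genes differ between them, and no test is given. Ccn5, a secreted CCN protein, stood at 3.63 ± 1.16 CPM in SM negative and 9.86 ± 1.52 CPM in SM positive cells, 2.71-fold. The other 4 differed by 1.18-fold to 1.31-fold. Mgp ranked 101 by the same measure (r = 0.96) and Olfml2b 469 (r = 0.87).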

How the data were processed

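Expected counts per gene were deposited for 6 libraries of polyadenylated RNA; the labels' protocols name a stranded mRNA kit. Per the submitters' processing notes, FastQC 0.11.5, STAR 2.6.0a and RSEM 1.3.1 were used with GRCm38, with no order or role given. The sources used here give no annotation release and no strand setting.

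Expected counts were rounded, since 13.5% to 14.4% of deposited values per library were not whole. Identifiers were matched without version to GENCODE M21 (99.8% matched); promoters are RefSeq's, found for 7 of 10 members. Genes were filtered with filterByExpr, scaled by TMM and tested over the whole table with edgeR 4.0.16 (R 4.3.3, robust quasi-likelihood fit, Benjamini-Hochberg adjustment). SE is the absolute log2 change over the root of F. TPM was computed here from merged exon lengths. The fits with and without the block were tried on simulated data. Those data held no effect of the replicate number, so they cannot check how the block handles one.

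Deviations from fraction means correlated at 0.22, 0.28 and 0.196 between libraries of the same number and at -0.175 to -0.0435 otherwise. Deviations cancel out within a fraction, so the negative values partly follow from the positive ones. On the same-number values, those libraries were treated as pairs in the pair ratios and the block. The main fit, used where no block is named, ignores the pairing. Alternatives were the block, DESeq2 1.42.0, limma-voom (limma 3.58.1), RLE, library totals, no filter, a minimum above 1 CPM in 3 libraries, and leaving out libraries or pairs.

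Members and lists were chosen with earlier results of these data known. Named genes were all members and, from each list, up to 2 higher and 2 lower genes past the threshold with the smallest p and at least 1 CPM, or the 2 most abundant where none passed; the 5 genes most like Ogn were added.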

Additional observations from a re-analysis of the deposited data

How the results depend on the processing

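Ogn, Olfml2b and Mgp were called in every setting that kept all 6 libraries, and no gene named as past the threshold in the fit without the block changed direction. Podnl1, which did not pass there, passed in the blocked fit without pair 2 (log2 change 0.26) and stood at -0.01 without SM positive replicate 1. The number of members called was 1 to 4 with libraries or pairs left out; the single call, Mgp, came without SM negative replicate 2. Prelp was the fourth in the unfiltered fit and in the blocked fit without pair 3, the pair in which it had 6 and 7 counts. In replicates 1 and 2 it stood at 0.119 and 0.0534 CPM in SM negative and 1.01 and 0.514 CPM in SM positive libraries. Prelp thus passed the filter there only through the SM positive libraries, and no test is read from that call. Over all genes the count was 190, and 1982 with the replicate block, 334 with DESeq2 and 663 without a filter; it was from 25 to 123 with single libraries left out and 705, 1793 and 886 with the block and pair 1, 2 or 3 left out. With the replicate block the count was 8 for glycosaminoglycan synthesis (from 0), 10 for partners (from 6), 5 for mineralisation (from 2), 3 for neighbours (from 0) and 1 for fibroblast markers (from 0). With DESeq2 it was 1 for glycosaminoglycan synthesis and 1 for neighbours. Without a filter it was 1, 4 and 2 for glycosaminoglycan synthesis, mineralisation and neighbours. With libraries or pairs left out it ranged over 0 to 10 for glycosaminoglycan synthesis and for partners, 0 to 5 for mineralisation, 0 to 3 for neighbours, 0 to 1 for olfactomedins and 0 to 1 for other small proteoglycans. The cause was not tested. RLE factors and library totals moved the median log2 change of all genes by 0.001 or less. At this depth 6 of the 10 members were too low to judge, with at most 27 counts in any library.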
